A study of Mus musculus with 7 samples.

Results

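The genes described here encode proteins of the nuclear lamina and the inner nuclear membrane. They were taken by symbol from the deposited panel of 23930 amplicons, which held all 10 of them: the lamins Lmna, Lmnb1 and Lmnb2, the lamin B receptor Lbr, the LEM domain genes Emd, Tmpo and Lemd3, the LEM partner Banf1, and the LINC genes Sun1 and Sun2. RNA came from paraffin sections of contralateral mammary tissue, that is, glands without the tumor in mice that carried an incident tumor, from parous mice. The labels call the mice matched for age, and the age of each mouse is not given in the sources used here. The study's average age at sacrifice, over larger groups than those read here, was lower for the HMMRTg/Tg genotype. The 3 control mice (mice 1, 2 and 3) were Blg-Cre;Brca1f/f;Trp53+/-, and the 4 mice with the transgene (mice 7, 8, 9 and 11), here called HMMRTg/Tg mice, were of the genotype Blg-Cre;HMMRTg/Tg;Brca1f/f;Trp53+/-. All 7 mice therefore shared the Cre, the floxed Brca1 alleles and the loss of 1 Trp53 allele, and the groups differed by a human HMMR sequence in Rosa26 behind a loxP-flanked stop. Blg-Cre acts in mammary epithelium during lactation, so in whole tissue the transgene is limited to some of the cells that gave RNA.

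The lamina is a meshwork of intermediate filament proteins under the inner nuclear membrane that shapes the nucleus and anchors chromatin. A-type lamins are abundant in differentiated and mechanically loaded cells, whereas B-type lamins are found in nearly all cells, and LEM domain proteins hold chromatin to the membrane through the small DNA binding protein BAF. The envelope is taken apart and rebuilt at each open mitosis, and rupture of the envelope around micronuclei exposes their DNA to the cytosol. The study measured nuclear size and micronuclei in such tissue by staining, in larger groups of mice than those read here. The comparison here addresses whether transcripts of the envelope differed between the genotypes.

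Values are reads per 1000000 reads on the panel (RPM), from 5532358 to 9345916 reads per mouse. With 0 reads a level of up to 3 reads, or 0.321 to 0.542 RPM, remains possible from counting error alone. Each gene was read by 1 amplicon with its own efficiency, so levels were compared between mice and not between genes. The genotypes were compared with limma on log2(RPM + 1), over the 13080 genes that reached 1 RPM in 3 or more mice. On this scale differences in genes with few reads come out smaller than they are in RPM. Mouse Hmmr was read at 1.45 to 4.09 RPM in control and 2.43 to 12.2 RPM in HMMRTg/Tg mice, with mouse 9 inside the control range. This does not check the labels, because it was not tested whether human HMMR is amplified too. Brca1, floxed in both groups, was read at 0.542 to 1.21 RPM in control and 1.84 to 3.97 RPM in HMMRTg/Tg mice, and whether its amplicon lies in the deleted part was not tested. Luminal markers summed to 3002 to 5146 RPM and myoepithelial markers to 816 to 1517 RPM across the 7 mice, so markers of both epithelial layers were read in every mouse. Skeletal muscle markers summed to 2155 to 13018 RPM in control and 65.1 to 170 RPM in HMMRTg/Tg mice, without overlap.

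Most of these envelope genes were read at higher levels in HMMRTg/Tg than in control tissue, with the B-type lamin Lmnb1 furthest apart. Of the 10 genes, 9 had enough reads to be tested, with a positive log2 fold change in 7 and a negative change in 2, where 61.2% of all genes tested had a positive change. Their median was 0.42, and the median over all genes tested was 0.11. Lmna, Lmnb1, Lmnb2, Lemd3 and Banf1 did not overlap between the groups, with every HMMRTg/Tg mouse above every control mouse. That was 5 of 9, and over all genes tested 6.52% were higher without overlap and 3.34% lower without overlap. An unadjusted p under 0.05 in limma was reached by 3 higher genes (Lmnb1, Lmna and Banf1) and by 0 lower genes, and over all genes by 6.49% higher and 3.22% lower. After Benjamini-Hochberg adjustment over all genes limma called 0 of the 9 in either direction, where 0.0382% of all genes were called higher and 0.367% lower. On the recovered reads edgeR called 0, where it called 4 of all genes higher and 65 lower. DESeq2 called 1, Lmnb1, where it called 79 of all genes higher and 187 lower. The filter on low values bears on these counts, since a gene passes it through whichever group has the higher values. The genes were also chosen with earlier results of these data known. They were read in the same libraries, so they are not independent observations.

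**Figure D1:**
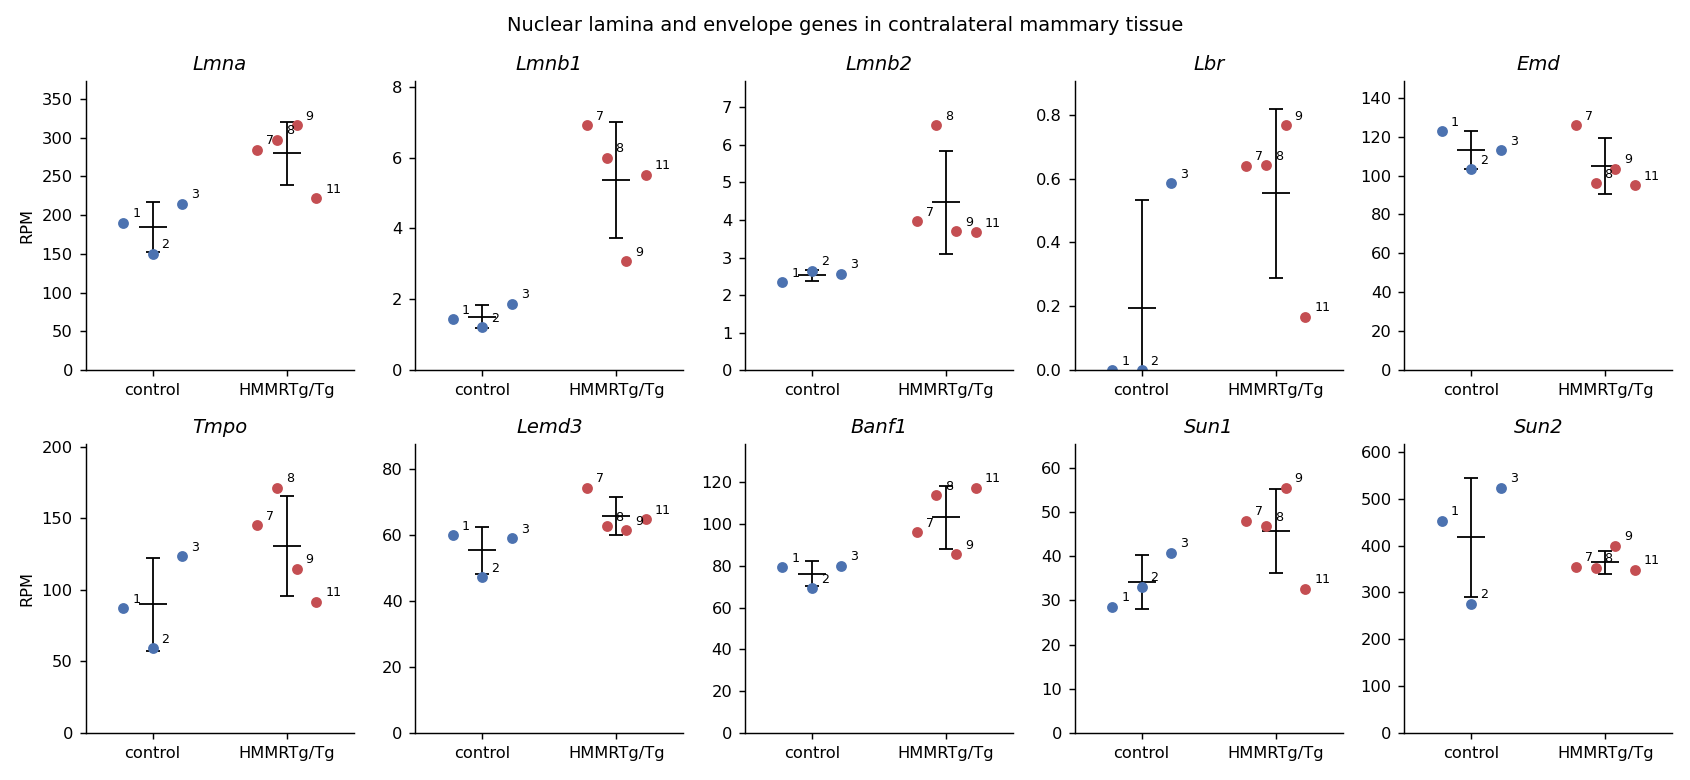
RPM of the 10 lamina and envelope genes in each mouse, with the linear y axis from 0 in each panel. Points are mice with their numbers, and bars give the mean and SD of 3 control and 4 HMMRTg/Tg mice, with the lower bar of Lbr in control cut off at 0. Lmna, Lmnb1, Lmnb2, Lemd3 and Banf1 show every HMMRTg/Tg mouse above every control mouse, and Emd, Tmpo, Sun1, Sun2 and Lbr overlap.

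Lmna, which encodes lamins A and C by alternative splicing, lies on chromosome 3 from 88481148 to 88509932 (GRCm38.p6). It was read at 190, 150 and 214 RPM in control mice 1, 2 and 3, and at 284, 297, 316 and 222 RPM in HMMRTg/Tg mice 7, 8, 9 and 11. The groups approached each other closely at mouse 3 and mouse 11, and the remaining HMMRTg/Tg mice were well above all control mice. The means were 185 ± 32.3 RPM (SD, n = 3) and 280 ± 40.9 RPM (SD, n = 4). The log2 fold change was 0.60 (standard error 0.20, 95% interval 0.15 to 1.04, unadjusted p = 0.013, adjusted p = 0.350 from limma). With 1 amplicon, lamin A and lamin C transcripts were not told apart.

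Lmnb1, a farnesylated B-type lamin that stays with membranes through mitosis, lies on chromosome 18 from 56707813 to 56753424. It was read at 1.45, 1.21 and 1.87 RPM in control mice 1, 2 and 3, and at 6.92, 5.99, 3.07 and 5.52 RPM in HMMRTg/Tg mice 7, 8, 9 and 11. All control mice were under 2 RPM, and mouse 9 was the lowest of the HMMRTg/Tg mice, though still above each control mouse. These values stand on 8, 11 and 16 reads in control and 54, 56, 24 and 33 reads in HMMRTg/Tg mice. The ratio of the summed reads, scaled to total reads, was 3.57 (exact 95% interval 2.47 to 5.29, for counting error only). Means were 1.51 ± 0.333 RPM (SD, n = 3) and 5.37 ± 1.64 RPM (SD, n = 4), with a log2 fold change of 1.31 (standard error 0.35, 95% interval 0.53 to 2.09). The unadjusted p was 0.004 and the adjusted p 0.237 from limma. On the recovered reads the log2 fold change was 1.74 in edgeR (adjusted p = 0.215) and 1.73 in DESeq2 (adjusted p = 0.0447), so the call for this gene depended on the tool. The log2 fold change was 0.41 with a pseudocount of 10 RPM, which is above all of its values, and from 1.19 to 1.51 when any mouse was left out.

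Lmnb2, the other B-type lamin, lies on chromosome 10 from 80901363 to 80918245. It was read at 2.35, 2.65 and 2.57 RPM in control mice 1, 2 and 3, and at 3.97, 6.53, 3.71 and 3.68 RPM in HMMRTg/Tg mice 7, 8, 9 and 11. Control mice were close together, and mouse 8 was set apart from the other HMMRTg/Tg mice, which lay between 3.68 and 3.97 RPM. Summed reads were 59 in control and 143 in HMMRTg/Tg mice, a scaled ratio of 1.81 (exact 95% interval 1.33 to 2.50, for counting error only). The log2 fold change was 0.61 (standard error 0.33, 95% interval −0.12 to 1.33, unadjusted p = 0.093, adjusted p = 0.596 from limma) and 0.44 without mouse 8. Whether the lamins differed from each other in their change was not tested.

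**Figure D2:**
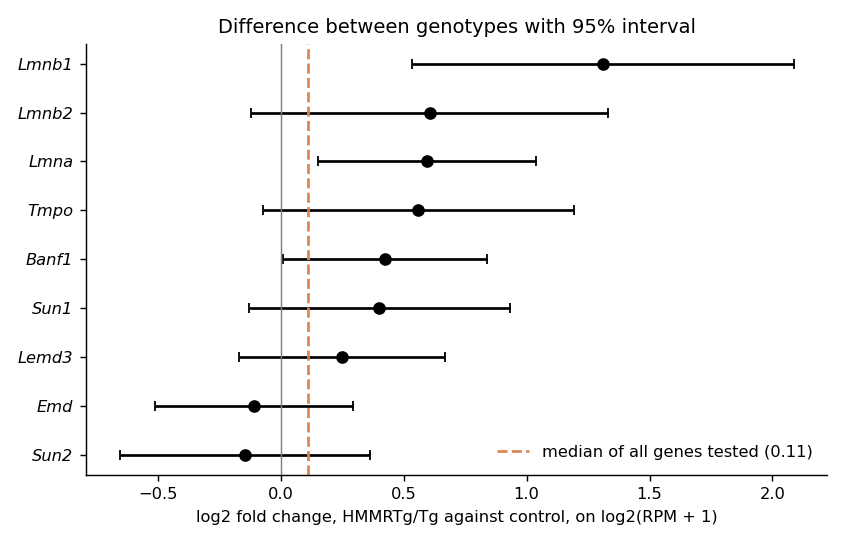
Log2 fold change of the 9 tested genes in HMMRTg/Tg against control tissue, on log2(RPM + 1), with 95% intervals from limma. The dashed line is the median of all genes tested, at 0.11. The intervals of Lmnb1, Lmna and Banf1 lie above 0, and those of the other 6 genes include it.

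The balance between lamins was described within each mouse, since a ratio of 2 amplicons in 1 library does not depend on how that library was scaled. The log2 ratio of Lmna to Lmnb1 was 7.04, 6.95 and 6.84 in control mice 1, 2 and 3, and 5.36, 5.63, 6.69 and 5.33 in HMMRTg/Tg mice 7, 8, 9 and 11. The ratio was lower in every HMMRTg/Tg mouse, by 1.19 in the mean, although mouse 9 was nearly level with control mouse 3. The log2 ratio of Lmnb1 to Lmnb2 was −0.70, −1.13 and −0.46 in control mice and 0.80, −0.12, −0.27 and 0.59 in HMMRTg/Tg mice. It was higher in every HMMRTg/Tg mouse, and here too mice 8 and 9 were near the control mice. Both B-type lamins had few reads. This ratio and that of Tmpo to Emd were not among the planned ratios, and the latter overlapped between the groups. The log2 ratio of Lmna to Lmnb2 overlapped between the groups, with means of 6.18 ± 0.31 (SD, n = 3) and 5.998 ± 0.39 (SD, n = 4). The sizes of these ratios reflect amplicon efficiency as well as abundance and were compared between mice only.

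**Figure D3:**
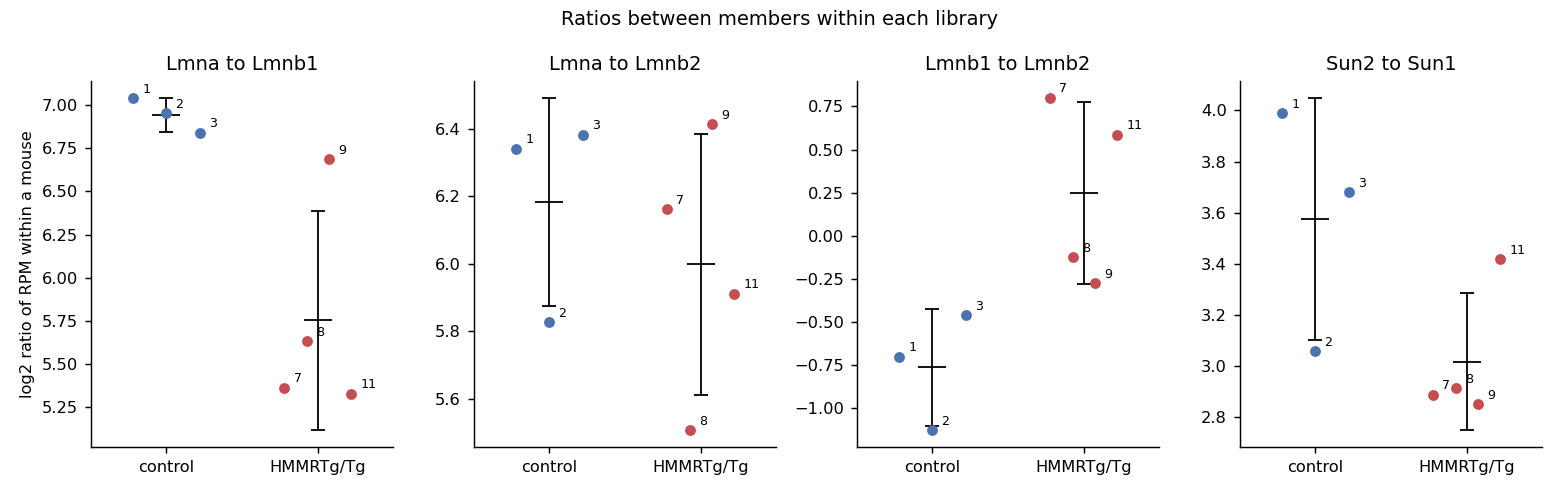
Log2 ratio of RPM between pairs of genes within each mouse, with points for mice and bars for the mean and SD of 3 control and 4 HMMRTg/Tg mice. The y axes do not start at 0. The ratio of Lmna to Lmnb1 is lower and that of Lmnb1 to Lmnb2 higher in every HMMRTg/Tg mouse, and the ratios of Lmna to Lmnb2 and of Sun2 to Sun1 overlap.

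Lbr, an inner membrane protein that binds B-type lamins and heterochromatin and is also a sterol reductase, lies on chromosome 1 from 181815315 to 181842401. It was close to the limit of detection. Reads numbered 0, 0 and 5 in control mice 1, 2 and 3 and 5, 6, 6 and 1 in HMMRTg/Tg mice 7, 8, 9 and 11, which is 0, 0 and 0.585 RPM against 0.640, 0.642, 0.767 and 0.167 RPM. The groups overlapped, and the scaled ratio of summed reads was 2.69 (exact 95% interval 0.96 to 9.27, for counting error only). A difference in Lbr was not detectable at this depth, and a log2 ratio of Lmnb1 to Lbr could not be formed in the mice with 0 reads. With no filter on low values the log2 fold change was 0.40 (adjusted p = 0.696 from limma).

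Of the LEM domain genes, Tmpo and Lemd3 had positive and Emd a negative log2 fold change, and the 95% intervals of all 3 included 0. Tmpo encodes the LAP2 proteins, of which the beta form binds B-type lamins and the alpha form binds A-type lamins in the nucleoplasm. Tmpo was read at 86.9, 59.1 and 124 RPM in control mice 1, 2 and 3, and at 145, 171, 115 and 91.7 RPM in HMMRTg/Tg mice 7, 8, 9 and 11. Mice 7 and 8 were above all control mice, and mice 9 and 11 lay inside the control range. The log2 fold change was 0.56 (standard error 0.29, 95% interval −0.07 to 1.19, adjusted p = 0.560 from limma), and 0.29 without control mouse 2. Tmpo lies on chromosome 10 from 91147571 to 91181752, and its isoforms were not told apart.

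Lemd3 encodes MAN1, which also binds SMAD proteins and thereby restrains TGF-beta signaling, and lies on chromosome 10 from 120923411 to 120979396. Lemd3 was read at 59.8, 47.0 and 58.8 RPM in control mice 1, 2 and 3, and at 74.2, 62.5, 61.2 and 64.6 RPM in HMMRTg/Tg mice 7, 8, 9 and 11. The groups did not overlap, but mouse 9 was above mouse 1 by less than the SD of either group (7.12 RPM in control and 5.85 RPM in HMMRTg/Tg mice). The log2 fold change was 0.25 (standard error 0.19, 95% interval −0.17 to 0.67, adjusted p = 0.703 from limma). Emd encodes emerin, whose loss causes an X-linked muscular dystrophy in humans, and lies on chromosome X from 74254674 to 74261563. Emd was read at 123, 103 and 113 RPM in control mice 1, 2 and 3, and at 126, 96.0, 103 and 95.04 RPM in HMMRTg/Tg mice 7, 8, 9 and 11. Emd overlapped fully, with its highest and its lowest value both in HMMRTg/Tg mice. For Emd the log2 fold change was −0.11 (standard error 0.18, 95% interval −0.51 to 0.29, adjusted p = 0.882 from limma).

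Banf1 encodes BAF, the DNA binding protein that LEM domains hold and that gathers chromosomes into 1 nucleus as the envelope reforms. The gene lies on chromosome 19 from 5364633 to 5366876. Banf1 was read at 79.4, 69.3 and 80.1 RPM in control mice 1, 2 and 3, and at 96.2, 114, 85.5 and 117 RPM in HMMRTg/Tg mice 7, 8, 9 and 11. Every HMMRTg/Tg mouse was above every control mouse, with mouse 9 again nearest to them. Means were 76.3 ± 6.02 RPM (SD, n = 3) and 103 ± 15.0 RPM (SD, n = 4), with a log2 fold change of 0.42 (standard error 0.19, 95% interval 0.01 to 0.84, unadjusted p = 0.047, adjusted p = 0.503 from limma). The log2 fold change of Banf1 was 0.33 (standard error 0.22) with TMM factors and 0.33 (standard error 0.19) with quantile normalization.

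SUN proteins span the inner membrane and bind nesprins of the outer membrane, and so couple the lamina to the cytoskeleton. Sun1 lies on chromosome 5 from 139200564 to 139249839. Its RPM was 28.6, 33.1 and 40.8 in control mice 1, 2 and 3, and 48.0, 46.9, 55.5 and 32.6 in HMMRTg/Tg mice 7, 8, 9 and 11. Mouse 11 alone lay in the control range. For Sun1 the log2 fold change was 0.40 (standard error 0.24, 95% interval −0.13 to 0.93, adjusted p = 0.631 from limma). Sun2 lies on chromosome 15 from 79724068 to 79742536. Its RPM was 453, 276 and 523 in control mice 1, 2 and 3, and 355, 353, 400 and 349 in HMMRTg/Tg mice 7, 8, 9 and 11. The control mice spread on both sides of the HMMRTg/Tg mice, whose SD was 24.0 RPM beside 128 RPM in control. On the log2 scale the change of Sun2 was −0.15 (standard error 0.23, 95% interval −0.66 to 0.36, adjusted p = 0.874 from limma), and it turned to 0.041 without control mouse 3. The log2 ratio of Sun2 to Sun1 was 3.99, 3.06 and 3.68 in control mice and 2.89, 2.91, 2.85 and 3.42 in HMMRTg/Tg mice, with overlap at mouse 11.

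The stretches of 200 bases upstream of the gene starts are shown for the 3 genes whose window ends at the gene's start and overlaps no other protein coding gene (RefSeq, GRCm38.p6, 5′ to 3′ on the minus strand, the strand of all 3 genes). They are set side by side because promoters of genes expressed around mitosis often carry CCAAT boxes and CHR elements. The table used held promoters for 9 of the 10 genes, without Lmnb1. Capitals mark 3 motifs searched on both strands: the NF-Y box (CCAAT or ATTGG), the CHR element (TTTGAA or TTCAAA) and the GC box (GGGCGG or CCGCCC). The windows are chr10:80918246-80918445 for Lmnb2, chr1:181842402-181842601 for Lbr and chr15:79742537-79742736 for Sun2.
Lmnb2: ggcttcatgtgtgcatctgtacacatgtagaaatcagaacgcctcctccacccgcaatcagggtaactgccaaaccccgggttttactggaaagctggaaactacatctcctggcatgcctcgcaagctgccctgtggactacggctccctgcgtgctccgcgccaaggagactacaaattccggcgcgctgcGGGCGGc
Lbr: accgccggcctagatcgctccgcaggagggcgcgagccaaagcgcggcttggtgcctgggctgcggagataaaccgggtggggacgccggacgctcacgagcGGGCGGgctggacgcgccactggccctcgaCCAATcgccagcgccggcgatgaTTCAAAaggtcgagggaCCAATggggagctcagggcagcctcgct
Sun2: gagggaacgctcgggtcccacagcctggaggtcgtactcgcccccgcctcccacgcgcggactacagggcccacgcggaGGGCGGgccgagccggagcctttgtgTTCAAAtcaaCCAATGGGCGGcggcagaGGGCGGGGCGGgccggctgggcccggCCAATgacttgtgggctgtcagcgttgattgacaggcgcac

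The Lmnb2 window held 1 GC box and neither of the other motifs. The Lbr window held 2 NF-Y boxes, 1 CHR element and 1 GC box. The Sun2 window held 2 NF-Y boxes, 1 CHR element and 4 GC boxes, of which 2 share 1 base and another adjoins an NF-Y box, and it also overlaps the noncoding gene Gm16576. Of 32851 windows of the same length in the table, 29.3% held an NF-Y box, 12.5% a CHR element and 31.0% a GC box. The E2F core TTCCCGC or GCGGGAA was in none of the 3 windows and in 3.28% of all windows. These are matches of letters and not measured sites.

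The mice ranked alike for several of the genes. Control mouse 2 had the lowest RPM of all 7 mice for 6 of the 9 tested genes (Lmna, Lmnb1, Tmpo, Lemd3, Banf1 and Sun2), and it also had the highest skeletal muscle sum (13018 RPM) and the lowest adipocyte sum (12834 RPM). Without mouse 2 the number of genes at an unadjusted p under 0.05 was 1 in place of 3, although 7 of 9 log2 fold changes stayed positive with a median of 0.36. The highest RPM was in mouse 7 for 3 genes, in mice 8 and 9 for 2 each and in mice 3 and 11 for 1 each. The part of muscle or fat content in these values was not tested. In bulk tissue, fewer cells of a type and less RNA per cell cannot be told apart.

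Dividing cells rebuild their envelope, so proliferation markers were set beside the members. All 19 such markers on the panel had positive log2 fold changes (median 1.03), where 61.2% of all genes tested had one. Of these markers limma and edgeR called 0. DESeq2, which called 79 of all genes higher, called 3, Birc5, Cdca8 and Top2a. Their mean log2(RPM + 1) was 2.01, 3.02 and 2.87 in control mice 1, 2 and 3, and 4.17, 4.31, 2.72 and 3.65 in HMMRTg/Tg mice 7, 8, 9 and 11. Mice 7, 8 and 11 were above all control mice, whereas mouse 9 lay inside the control range (exact permutation test, two-sided, p = 0.171). Their summed RPM was 136 to 287 in control and 223 to 803 in HMMRTg/Tg mice, and no marker was at 0 in all mice. Ccna2 and Cdk1, a cyclin and a kinase of the division cycle, had means of 70.1 and 31.0 RPM in control and of 199 and 69.0 RPM in HMMRTg/Tg mice. Mki67, a marker of cycling cells, was at 5.77 ± 4.17 RPM in control (SD, n = 3) and 14.7 ± 10.2 RPM in HMMRTg/Tg mice (SD, n = 4). Top2a, a topoisomerase of mitotic chromosomes, was at 12.8 ± 4.74 RPM in control (SD, n = 3) and 46.0 ± 23.0 RPM in HMMRTg/Tg mice (SD, n = 4).

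Across the 7 mice, the B-type lamins followed the mean of the proliferation markers most closely. Pearson's r was 0.86 for Lmnb1 (exact permutation p = 0.0270, adjusted over 10 genes 0.135) and Spearman's rho 0.71 (p = 0.0881, adjusted 0.333). For Lmnb2 r was 0.82 (exact permutation p = 0.0147, adjusted 0.135) and rho 0.79 (p = 0.0480, adjusted 0.333). Without mice 8 and 7, which were farthest from the median of the marker mean, r was 0.67 for Lmnb1 and 0.63 for Lmnb2. For Banf1 r was 0.72 (exact permutation p = 0.0730, adjusted 0.243) and 0.61 without these mice. For Tmpo r went from 0.57 to −0.07 and for Lmna from 0.48 to 0.03, so that these relations rested on mice 7 and 8. Emd and Sun2 had r of −0.32 and −0.45, which went to −0.91 and −0.47 without mice 7 and 8, so the value for Emd depended on these mice. None passed 0.05 after adjustment, the points of a mouse share a library, genotype moves along both axes, and groups of 3 and 4 mice are too few for an r of their own.

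**Figure D4:**
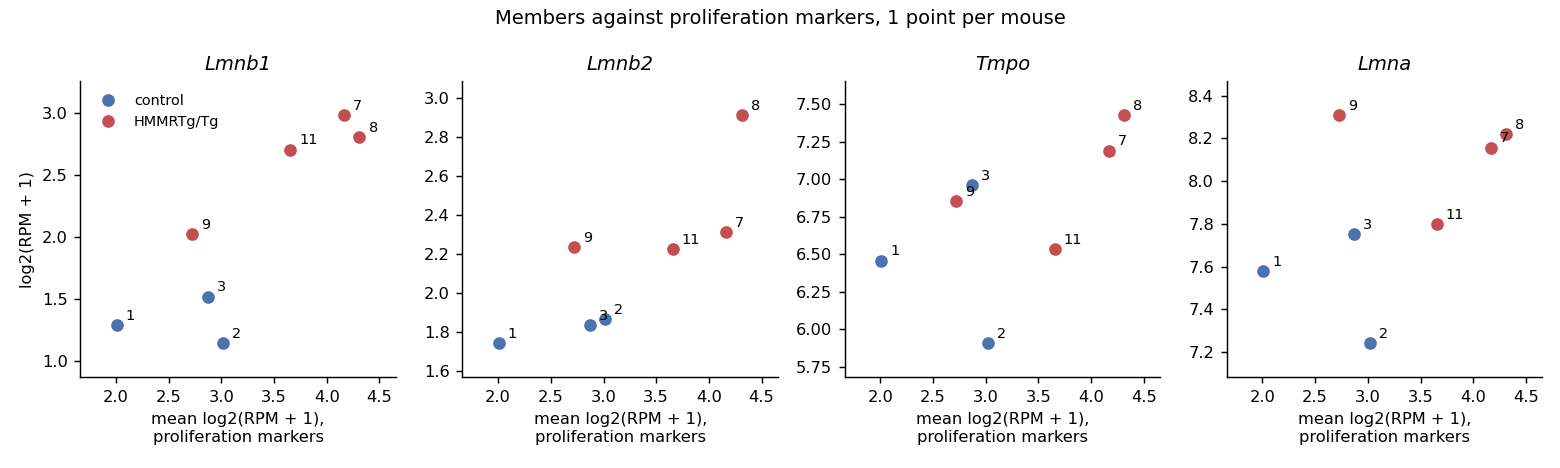
Log2(RPM + 1) of Lmnb1, Lmnb2, Tmpo and Lmna in each mouse against the mean log2(RPM + 1) of 19 proliferation markers, with 1 point per mouse. Axes do not start at 0. Mouse 9 lies within the control range on the x axis, and on the y axis it is the HMMRTg/Tg mouse with the lowest Lmnb1 and with the highest Lmna.

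The A-type lamin and Lmnb1 ran apart in mouse 9. Its proliferation mean was 2.72, inside the control range, and its Lmnb1, at 3.07 RPM, was the lowest among HMMRTg/Tg mice, while its Lmna, at 316 RPM, was the highest of all mice. Without mouse 9 the log2 fold change of Lmnb1 was 1.51 (adjusted p = 0.139 from limma) and that of Lmna 0.53 (adjusted p = 0.469). Mouse 9 also had the highest mean of adipocyte markers, at 9.87 beside 8.36 to 9.39 in the other mice. It had the highest means of all mice for macrophage (4.75), endothelium (4.50) and skin keratinocyte markers (3.65) too. The part of these cell types in its Lmna value was not tested.

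Markers of epithelium were set beside the members as well. Of these limma and edgeR called 0, and DESeq2 called 1 luminal marker lower (Prlr) and 1 myoepithelial marker higher (Igfbp2). In limma 13 of 15 luminal markers had positive log2 fold changes (median 0.57), where 61.2% of all genes tested had one. Their summed RPM was 3002 to 3709 in control and 3753 to 5146 in HMMRTg/Tg mice. The mean over the list overlapped (exact permutation test, two-sided, p = 0.171). Epcam, an epithelial adhesion protein, had means of 1225 and 2112 RPM, and Elf5, a transcription factor of luminal progenitors, of 366 and 638 RPM. Prlr, the prolactin receptor, was opposite in direction, with means of 482 and 230 RPM (log2 fold change −1.03, adjusted p = 0.126 from limma). Without overlap, 2 luminal markers were higher, Epcam among them, and 1 was lower, Prlr. Over all genes tested 6.52% were higher and 3.34% lower without overlap. The keratins of the luminal list differed little, with log2 fold changes of 0.19 for Krt8, 0.12 for Krt18, 0.07 for Krt7 and −0.04 for Krt19. In limma all 9 tested myoepithelial markers had positive values (median 0.40), and 8 in edgeR and DESeq2. The summed RPM of the myoepithelial list was 816 to 930 in control and 934 to 1517 in HMMRTg/Tg mice. Its mean log2(RPM + 1) overlapped between the groups (exact permutation test, two-sided, p = 0.286). No luminal or myoepithelial marker was at 0 in all mice. The part of epithelial content in the members' values was not tested. Among other cell types the median log2 fold change was −0.51 for B and plasma cell, −0.63 for T cell, −0.31 for macrophage, −0.52 for neutrophil, 0.36 for adipocyte, 0.19 for fibroblast, 0.08 for endothelium and −0.38 for skin keratinocyte markers. Muscle markers were lower for 19 of 19, of which limma called 15 lower, with a median of −5.34.

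Further genes of the envelope are described in 5 lists, and limma, edgeR and DESeq2 each called 0 genes of these lists in either direction after adjustment over all genes. Among the ESCRT genes, which reseal the envelope around chromosomes, 10 of the 11 on the panel were tested. All 10 log2 fold changes were positive in limma and 9 with edgeR, DESeq2, TMM factors or quantile normalization. Their median was 0.36 in limma, where that of all genes was 0.11, and 0.23 and 0.21 in edgeR and DESeq2, where that of all genes was 0.01 and −0.01. Of these, 4 were higher and 0 lower without overlap, where over all genes 6.52% were higher and 3.34% lower. At an unadjusted p under 0.05 in limma 2 were higher and 0 lower, beside 6.49% and 3.22% of all genes. Chmp3 was read at 181, 173 and 156 RPM in control mice 1, 2 and 3, and at 236, 249, 275 and 238 RPM in HMMRTg/Tg mice 7, 8, 9 and 11. The lowest HMMRTg/Tg mouse was thus well above the highest control mouse (log2 fold change 0.55, standard error 0.17, adjusted p = 0.292 from limma). Chmp4c, which acts in the abscission checkpoint, was read at 4.70, 13.6 and 15.7 RPM in control and 25.7, 22.5, 29.3 and 19.1 RPM in HMMRTg/Tg mice (log2 fold change 1.16, standard error 0.38, adjusted p = 0.335 from limma). Chmp4b, the main filament forming subunit, was read at 595, 508 and 646 RPM in control and 740, 845, 770 and 713 RPM in HMMRTg/Tg mice (log2 fold change 0.40, adjusted p = 0.527 from limma). All 3 were higher in every HMMRTg/Tg mouse, mouse 9 included, where Chmp3 and Chmp4c had their highest values. ESCRT genes also act at endosomes and in cytokinesis.

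The list of other LINC and inner membrane genes was near the background. Of 18 on the panel 15 were tested, 10 had a positive log2 fold change, and the median of 0.08 turned to −0.013 with quantile normalization, −0.0062 in DESeq2 and −0.0031 with TMM factors. Over this list 2 genes were higher without overlap, 0 were lower without overlap, and 0 passed an unadjusted p of 0.05 in limma. Over all genes 6.52% were higher and 3.34% lower without overlap, and 6.49% and 3.22% at that p. Syne1 and Syne2, the large nesprins that SUN proteins bind, had log2 fold changes of −0.20 (95% interval −0.96 to 0.56, adjusted p = 0.885 from limma) and 0.07 (95% interval −0.90 to 1.05, adjusted p = 0.971). Syne4, an epithelial nesprin that binds kinesin, was read at 15.2, 33.8 and 15.7 RPM in control and at 34.5, 36.5, 20.7 and 61.4 RPM in HMMRTg/Tg mice. It overlapped at mouse 9 (log2 fold change 0.80, adjusted p = 0.542 from limma). Ankle2, which directs BAF dephosphorylation at the end of mitosis, did not overlap, with 72.5 to 82.4 RPM in control and 90.7 to 112 RPM in HMMRTg/Tg mice (log2 fold change 0.33, adjusted p = 0.587 from limma). Ankle1, a LEM domain nuclease, had 0.67 (adjusted p = 0.668).

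Of 30 nuclear pore genes 28 were on the panel and tested. In limma 18 had a positive log2 fold change, where 61.2% of all genes tested had one. The median of 0.07 turned to −0.016 in DESeq2 and −0.00045 with TMM factors. An unadjusted p under 0.05 in limma was reached by 3 higher and 0 lower genes, beside 6.49% higher and 3.22% lower over all genes. Without overlap, 1 was higher and 1 lower, where over all genes 6.52% were higher and 3.34% lower. Nup85 and Seh1l belong to the Y complex, the outer ring of the pore, part of which also binds kinetochores in mitosis. Nup85 was read at 87.5, 84.3 and 69.7 RPM in control and at 117, 135, 97.2 and 140 RPM in HMMRTg/Tg mice, without overlap (log2 fold change 0.59, standard error 0.20, adjusted p = 0.345 from limma). Seh1l was read at 30.4, 42.4 and 73.4 RPM in control and at 75.2, 94.5, 64.8 and 68.1 RPM in HMMRTg/Tg mice, with overlap at control mouse 3 (log2 fold change 0.70, adjusted p = 0.454). Nup93, of the inner ring, had 0.70 (adjusted p = 0.506). Nup98 was the gene of the list that was lower without overlap, at 222 to 313 RPM in control and 197 to 204 RPM in HMMRTg/Tg mice (log2 fold change −0.39, adjusted p = 0.523 from limma), and it was named after its values were seen.

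The genes that process the farnesylated tail of prelamin A and the B-type lamins gave a median of 0.08, which turned to −0.055 in edgeR and −0.075 in DESeq2, with 4 of 6 positive and 0 at an unadjusted p under 0.05 in limma. Zmpste24, the protease that releases mature lamin A, was read at 17.7, 32.1 and 33.8 RPM in control and at 45.3, 42.4, 32.4 and 30.5 RPM in HMMRTg/Tg mice. Mouse 1 was low and the other mice overlapped (log2 fold change 0.45, 95% interval −0.16 to 1.07, adjusted p = 0.641 from limma). For Narf, which binds the prelamin A tail, the log2 fold change was 0.58 (adjusted p = 0.576 from limma), and for Rce1, the CAAX protease, it was 0.10 (adjusted p = 0.896). The partners that tether chromatin had a median of 0.34, with 5 of 5 positive in limma and 4 of 5 in edgeR and DESeq2, 0 without overlap and 0 at an unadjusted p under 0.05. Beside both lists, 6.49% of all genes were higher and 3.22% lower at that p in limma, and 6.52% and 3.34% without overlap. Cbx5 and Cbx1, both HP1 proteins of heterochromatin, each had 0.49 (adjusted p = 0.558 and 0.830 from limma), and Hdac3, a histone deacetylase held by emerin and LAP2 beta, had 0.34 (adjusted p = 0.631). Tm7sf2, the paralog of Lbr in cholesterol synthesis, had −0.05 (adjusted p = 0.975 from limma), and Dhcr7, a reductase of the same pathway, had 0.33 (adjusted p = 0.687).

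**Figure D5:**
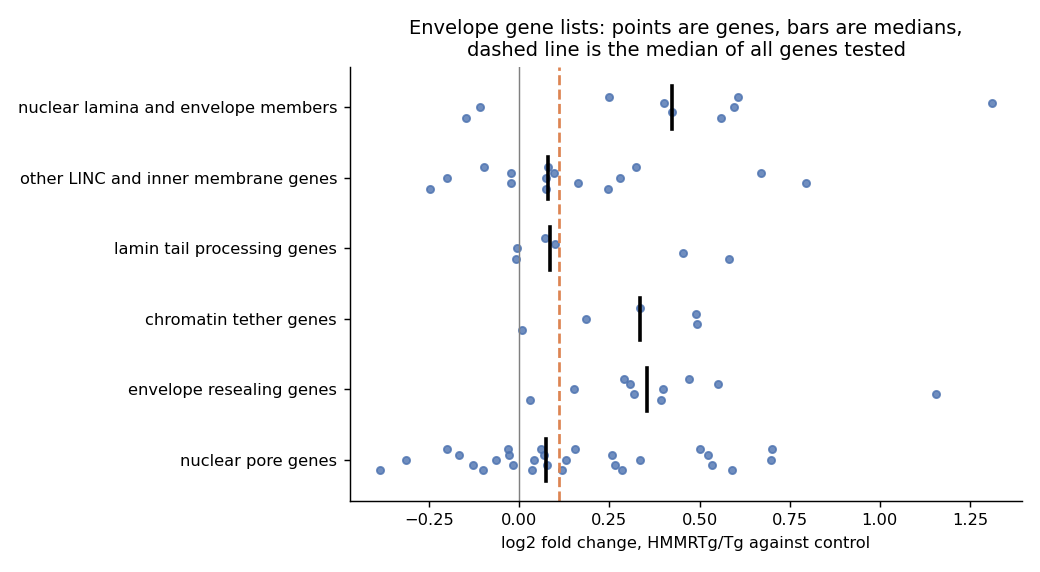
Log2 fold change in HMMRTg/Tg against control tissue for each tested gene of the lamina and envelope group and of 5 further lists. Points are genes, black bars are list medians, and the dashed line is the median of all genes tested (0.11). All 10 envelope resealing genes lie above 0 in limma (9 in edgeR and DESeq2), and the nuclear pore and other LINC and inner membrane lists are centered at 0.07 and 0.08.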

How the data were processed

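RNA of paraffin sections was read by the authors with the Ion AmpliSeq Transcriptome Mouse panel on an Ion Torrent instrument and processed with the AmpliSeqRNA plug-in. The deposited values, named TPM, are RPM: each mouse sums to 1000000, and 100% of values under 1000 reads were whole reads within 0.05. The submitters' processing notes name mm10 and Transcriptome Analysis Console. The aligner is not given in the sources used here. Gene names stored as dates (27) were read back from the amplicon names. Close paralogs could share reads.

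Groups came from the sample titles. The genotypes were compared on log2(RPM + 1) in limma 3.58.1 (R 4.3.3, eBayes with trend), without covariates, for genes that reached 1 RPM in 3 or more mice, two-sided, with Benjamini-Hochberg adjustment and a threshold of 0.05. The recovered reads were also tested with edgeR 4.0.16 and with DESeq2 1.42.0. Exact permutation tests between the groups used the 35 splits of 7 mice into 3 and 4, with 0.0571 as the smallest p. Those of the correlations with proliferation markers used all pairings of the values of the 7 mice, so their p can be smaller. Gene positions and promoters are from RefSeq (GRCm38.p6). The code was tested on simulated data. Other settings were pseudocounts of 0.1 and 10, other filters, TMM factors, quantile normalization, array weights, no trend and leaving out each mouse.

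The members and lists were chosen with earlier results of these data known. Nup98, Prlr, Igfbp2, Birc5, Cdca8, Krt7, Krt8, Krt18 and Krt19 were chosen after their values were seen. By rule the text names all members, up to 3 genes of lowest unadjusted p per envelope list, Syne1, Syne2, Zmpste24 and Tm7sf2. It also names by rule the 2 markers of highest mean RPM of a list set beside a result, Mki67 and Top2a. A gene that this rule took is not reported here.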

Additional observations from a re-analysis of the deposited data

Results flagged for a closer look

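Of 27 sets of values in the HMMRTg/Tg mice that were examined, 5 had a mouse far from the others. For normal values chance sets apart about 1 in 20, and these sets are not independent, since the ratios reuse members. Lmnb2 in mouse 8, at 6.53 RPM, stood above the other HMMRTg/Tg mice. Sun2 in mouse 9, at 400.1 RPM, stood above the rest of its group but inside the control range. The log2 ratio of Sun2 to Sun1 in mouse 11, at 3.42, was above the other HMMRTg/Tg mice and inside the control range. The mean log2(RPM + 1) of neutrophil markers in mouse 8 was 2.88, and that of skin keratinocyte markers in mouse 9 was 3.65, each above the rest of the group. The neutrophil value lay inside the control range, and the skin value lay above it. The control group, with 3 mice, was not examined in this way.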

How the results depend on the processing

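The log2 fold changes of the tested members kept their sign in every setting tried, except Sun2, which ranged from −0.42 to 0.041 when a mouse was left out and was positive without control mouse 3. With DESeq2, 1 member (Lmnb1, log2 fold change 1.73) was called higher, and all other settings called 0. Adjusted p for Lmnb1 ranged from 0.0447 to 0.588. At an unadjusted p under 0.05, 3 members were higher in limma. That number was 2 with TMM factors, quantile normalization, edgeR or DESeq2. Over all settings it ranged from 1 (without mouse 2) to 4 (without mouse 11 or with array weights). Lmnb2 could not be tested with a minimum of 5 RPM. Over all genes limma called 5 higher and 48 lower. These counts were 3 and 16 with a pseudocount of 10, and 79 and 187 with DESeq2, where 277 genes had no adjusted p. With a minimum of 5 RPM and with TMM factors 3 were higher, and with array weights 10. Leaving out each mouse gave 2 (without mouse 7 or 11) to 22 (without mouse 9) higher and 23 (without mouse 1) to 44 (without mouse 3) lower. The median over all genes was 0.11 in limma, 0.01 in edgeR and −0.01 in DESeq2, and that of the members 0.42, 0.35 and 0.32. With TMM factors the medians of the other LINC and inner membrane genes (−0.0031) and the nuclear pore genes (−0.00045) turned negative, as did the former (−0.0062), the latter (−0.016) and the lamin tail genes (−0.075) in DESeq2. The difference in marker means turned for macrophages as a median over the list (0.018). Leaving out each mouse gave −1.51 to 0.14 for B and plasma cells (turned without mouse 3), −0.62 to 0.016 for neutrophils (mouse 1), −0.049 to 0.45 for fibroblasts (mouse 3), −0.10 to 0.23 for endothelium (mice 1 and 9) and −0.97 to 0.50 for skin (mice 3, 7, 8 and 11). No paired analysis was possible because each mouse had 1 genotype and gave 1 library, and the sample titles name no pairs. Few reads limit Lbr, Lmnb1 and Lmnb2.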
